A study of Mus musculus with 31 samples.

Results

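The genes described here are 10 genes of skeletal muscle, namely Acta1, Actn2, Ttn, Des, Myh3, Mylpf, Tnnt3, Tnnc2, Casq2 and Ckm, read as a measure of muscle RNA in libraries that were made from sensory neurons and their axons. They are the rows whose Ensembl identifiers carry these symbols in the GENCODE M21 annotation, 10 of the 55536 genes in each of 2 count tables. The list was drawn up with the levels of muscle genes in these same libraries known, so the levels of the 10 genes and their differences between groups are given below as a description, without a test. Tests were kept for 82 other muscle genes, grouped by role in 7 lists that hold none of the 10; these lists, too, were drawn up with earlier results of these data known.

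The libraries came from translating ribosome affinity purification (TRAP), in which a tagged ribosomal protein is made in 1 cell class, the tagged ribosomes are pulled down and the RNA bound to them is sequenced. Every mouse carried L10a-eGFP-fl/fl, a Cre-dependent gene for ribosomal protein L10a fused to enhanced green fluorescent protein. The Cre groups also carried Nav1.8-Cre (written Nav1.8-Cre;L10a-eGFP-fl/fl in the genotype labels, with L10a-eGP in the sample titles), in which Cre from the locus of the sodium channel Nav1.8 (gene Scn10a) marks mostly pain-sensing neurons of the dorsal root ganglia, while the control groups had no Cre and therefore no tagged ribosomes by design. Central axon libraries were made from lumbar dorsal roots together with spinal cord (4 Cre, 4 control, batch 1), peripheral axon libraries from sciatic nerve (4 Cre, 3 control, batch 2) and soma libraries from lumbar dorsal root ganglia (4 Cre and 4 control in batch 1, 4 Cre and 4 control in batch 2). Age and sex of the mice are not among the labels used here. Libraries are named below by tissue, genotype and replicate number; 2 batch 1 soma controls, whose columns share a name, are called a and b. The labels call the replicates biological, but nothing used here says whether each was 1 mouse or a pool, so a p-value measures only the spread between these libraries.

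Skeletal muscle contracts through the sarcomere, in which myosin filaments pull on actin filaments that are anchored at the Z-disc, and the troponin complex on the actin filament switches the pull on when calcium leaves the sarcoplasmic reticulum. The genes for these proteins are among the most abundant transcripts of a muscle fibre, and most of them are very low in neurons and in the glia of a nerve. The sciatic nerve runs between the muscles of the thigh, whereas the ganglia and the dorsal roots lie inside the spinal column.

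The stretches before the transcription start of 3 of the 10 genes are shown because they hold the letters of elements through which muscle genes are known to be switched on together. Windows of 250 bases before the start came from RefSeq (GRCm38.p6) and matched 9 of the 10 genes, all but Tnnt3. They were searched on both strands for the CArG box (bound by serum response factor), the MEF2 element (bound by myocyte enhancer factors), the E-box CANNTG (bound by MyoD and its relatives, among others) and TATAAA. Capitals mark the CArG box in Acta1, which begins 73 bases before the start, and the MEF2 element in Casq2 and Ttn, 69 and 166 bases before it.
Acta1, chr8:123894776-123895025, minus strand: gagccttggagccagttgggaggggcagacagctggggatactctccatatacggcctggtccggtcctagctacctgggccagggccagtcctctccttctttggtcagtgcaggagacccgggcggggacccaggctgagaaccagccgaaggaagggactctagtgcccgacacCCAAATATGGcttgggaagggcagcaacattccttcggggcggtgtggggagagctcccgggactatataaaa
Casq2, chr3:102086165-102086414, plus strand: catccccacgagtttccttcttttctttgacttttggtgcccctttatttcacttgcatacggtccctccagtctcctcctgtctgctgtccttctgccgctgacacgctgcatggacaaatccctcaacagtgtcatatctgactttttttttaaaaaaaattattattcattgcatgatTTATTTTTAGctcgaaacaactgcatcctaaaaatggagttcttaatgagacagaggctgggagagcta
Ttn, chr2:76982548-76982797, minus strand: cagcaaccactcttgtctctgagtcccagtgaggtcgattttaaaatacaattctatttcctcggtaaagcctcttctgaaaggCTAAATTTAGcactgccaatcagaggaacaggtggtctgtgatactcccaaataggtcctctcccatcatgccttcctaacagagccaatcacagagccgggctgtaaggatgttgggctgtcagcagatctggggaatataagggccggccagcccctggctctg
The CArG box was found in 1 of the 9 windows and in 1.47% of all 32851 windows of this length, and the MEF2 element in 2 of the 9 and in 2.92% of all. The E-box was found in all 9 and in 66.2% of all windows, and TATAAA in 2 of the 9, Myh3 and Acta1, and in 12.4% of all. In the 3 windows shown no match overlapped another. A match of letters describes the sequence only.

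Total counts ran from 3601399 to 19637292 per library, so that 3 counts, taken as the smallest detectable amount, correspond to between 0.153 and 0.833 CPM (counts per 1e6, the count divided by the library total). Scn10a, the locus of the Cre driver, ranged from 312 to 505 CPM in the batch 1 soma Cre libraries. Their controls ranged from 33.4 to 625 CPM. In central axons it stood at 45.1 to 421 CPM with Cre and at 0 to 29.9 CPM without. These 2 groups did not overlap, as for 8.14% of all genes tested there. The ranges overlapped in the sciatic nerve (42.1 to 304 CPM with Cre, 0 to 127 CPM without). They also overlapped in the batch 2 somas (313 to 432 CPM with Cre, 286 to 598 CPM without). Scn10a passed the test in no comparison of Cre with control libraries. Several libraries stood apart from their group. Batch 1 soma controls held only 4934 to 7889 genes with at least 10 counts, against 12502 to 14015 in the batch 1 soma Cre libraries, and peripheral axon control 4 had 0 counts of Scn10a. Each batch has its own count table and its own axon tissue, so a difference between central and peripheral axons cannot be told apart from one between batches.

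Muscle RNA was high in all 7 sciatic nerve libraries, with and without Cre, and in 2 control libraries of the ganglia, and low in the other 22 libraries. The summed level of the 10 genes was 2424, 4937, 1491 and 1357 CPM in peripheral axon Cre libraries 1 to 4, and 5782, 35711 and 2002 CPM in peripheral axon controls 1, 2 and 4. Peripheral axon control 2 stood highest of all 31 libraries, with 3.57% of its counts on the 10 genes (Wilson 95% interval 3.56 to 3.59; intervals and the 3-count limit cover counting error only). The ranges of the 2 genotypes overlapped in the nerve.

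In the ganglia the level turned on single libraries. Batch 1 soma control 1 stood at 12007 CPM, or 1.20% of its counts (1.19 to 1.21), while controls a, 3 and b of the same group stood at 18.0, 2.37 and 18.2 CPM. Batch 2 soma control 6 stood at 1429 CPM, or 0.143% (0.139 to 0.147), while controls 5, 7 and 8 stood at 46.9, 63.9 and 127 CPM. No soma Cre library came near these values: batch 1 soma Cre 1 to 4 held 102, 23.0, 36.2 and 38.6 CPM, and batch 2 soma Cre 5 to 8 held 71.0, 51.0, 105 and 17.3 CPM. Central axon libraries were as low, at 152, 55.4, 25.2 and 52.0 CPM with Cre and 38.2, 32.1, 57.1 and 16.6 CPM without. A gap thus separated 9 libraries at or above 1357 CPM from 22 at or below 152 CPM. In such bulk libraries more muscle cells and more RNA per muscle cell cannot be told apart.

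By group median the order was peripheral axon control (5782 CPM), peripheral axon Cre (1958), batch 2 soma control (95.3), batch 2 soma Cre (61.0), central axon Cre (53.7), batch 1 soma Cre (37.4), central axon control (35.2) and batch 1 soma control (18.1). Each group overlapped the next in this order; peripheral axon Cre and batch 2 soma control did so only through soma control 6. The peripheral axon Cre libraries did not overlap the batch 2 soma Cre libraries, whose highest value was 105 CPM.

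**Figure D1:**
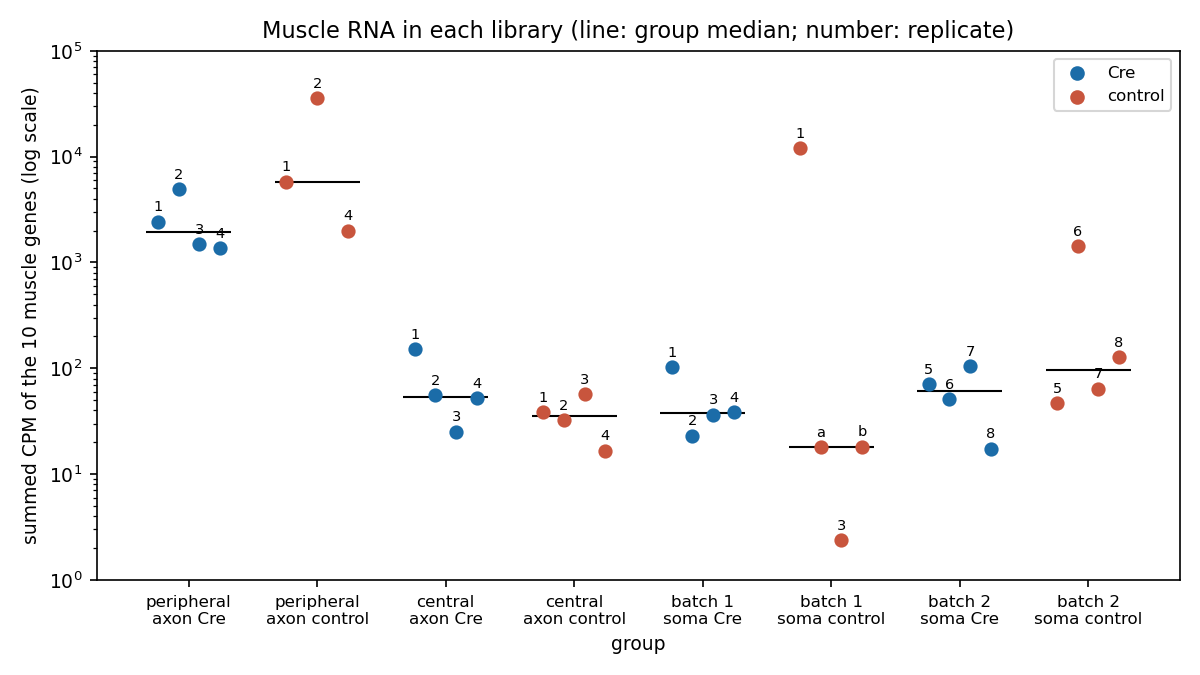
Summed level of the 10 muscle genes in each of the 31 libraries, in CPM on a log scale, by group; blue points are Cre and red points control libraries, the number is the replicate and the line the group median. All 7 peripheral axon libraries, batch 1 soma control 1 (12007 CPM) and batch 2 soma control 6 (1429 CPM) lie at or above 1357 CPM, and the other 22 at or below 152 CPM.

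Acta1, the skeletal muscle actin of the thin filament, was the only one of the 10 genes with counts in every library. Its level was 839, 1084, 359 and 319.5 CPM in peripheral axon Cre 1 to 4 and 2207, 10647 and 616 CPM in controls 1, 2 and 4. Batch 1 soma control 1 held 4482 CPM and batch 2 soma control 6 held 604 CPM. Among the 22 other libraries its median was 15.8 CPM and its highest value 65.5 CPM, in central axon Cre 1. The gene lies on chromosome 8 (GRCm38, 123891769 to 123894751, minus strand).

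Actn2, which encodes the alpha-actinin that ties actin filaments into the Z-disc, was lower but followed the same libraries. It stood at 27.7, 68.4, 15.6 and 36.4 CPM in the peripheral axon Cre libraries and at 144, 617 and 117 CPM in the controls, with no overlap between them. The level in batch 1 soma control 1 was 447 CPM. Batch 2 soma control 6 held 13.8 CPM, below central axon Cre 2, which at 25.9 CPM (289 counts) was the highest of the 22 low libraries. Central axon Cre 2 held more Actn2 than Acta1 (10.8 CPM), an order seen in none of the 9 high libraries. Whether Actn2 in the central axon libraries comes from muscle was not tested.

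Des, the intermediate filament protein desmin that links neighbouring Z-discs, was the only one of the 10 genes with 0 counts in a sciatic library. It stood at 28.9, 92.0, 14.9 and 57.0 CPM in the Cre libraries and at 152 and 727 CPM in controls 1 and 2. Peripheral axon control 4 had 0 counts of Des, although Acta1 was at 616 CPM there and the library held at least 10 counts of 9606 genes. Des was also at 0 in 10 of the 22 low libraries and reached 389.7 CPM in batch 1 soma control 1.

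Ttn encodes titin, the giant elastic protein that spans from the Z-disc to the middle of the sarcomere, and it had the longest exons of the set, 116.8 kb. Its level was 414, 778, 505 and 205 CPM in the peripheral axon Cre libraries and 1208, 5440 and 349 CPM in the controls. Per kb of exon it was the lowest of the 10 genes by median, at 4.33 CPM per kb over the 7 sciatic libraries. In the soma it was 549.7 CPM in batch 1 control 1 and 65.1 CPM in batch 2 control 6.

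The thick filament was represented by Myh3 and Mylpf. Myh3, the embryonic myosin heavy chain, stood at 70.8, 117, 53.2 and 53.1 CPM in the peripheral axon Cre libraries and at 196, 747 and 331 CPM in the controls, with no overlap. Levels were also high in the somas, where batch 1 control 1 held 587 CPM and batch 2 soma control 6 held 37.2 CPM. Among the 22 low libraries it was at 0 in 13 and reached 3.68 CPM at most. Mylpf, the regulatory light chain of fast myosin, stood at 85.8, 336, 67.6 and 73.2 CPM with Cre and at 209, 2127 and 131 CPM without, so that the groups overlapped. It was at 1828 CPM in batch 1 soma control 1, close to its highest level in a nerve library, and at 187 CPM in batch 2 soma control 6.

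Both troponin genes of the set belong to fast fibres. Tnnt3, the fast troponin T that binds the complex to tropomyosin, stood at 252, 603, 165 and 124 CPM in the peripheral axon Cre libraries and at 442, 3332 and 149 CPM in the controls. In batch 1 soma control 1 it reached 3191 CPM, and in batch 2 soma control 6 156 CPM. Tnnc2, the fast troponin C that binds calcium, stood at 418, 1407, 199 and 362 CPM in the peripheral axon Cre libraries and at 704, 8787 and 116 CPM in the controls. In the soma it was 149 CPM in batch 1 control 1 and 273 CPM in batch 2 control 6, values from 2 count tables that cannot be compared for this gene, as set out below.

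Casq2, the calsequestrin that stores calcium in the sarcoplasmic reticulum of cardiac and slow fibres, had the fewest counts of the 10 genes in 6 of the 7 sciatic libraries. It stood at 20.9, 38.1, 13.9 and 23.6 CPM with Cre and at 85.2, 166 and 112 CPM without, with no overlap. Batch 1 soma control 1 held 34.7 CPM and batch 2 soma control 6 only 4.44 CPM, or 18 counts. Ckm, the muscle creatine kinase that regenerates ATP, stood at 267, 414, 96.6 and 104 CPM with Cre and at 435, 3120 and 79.9 CPM without. It was at 348 CPM in batch 1 soma control 1 and at 66.4 CPM in batch 2 soma control 6.

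**Figure D2:**
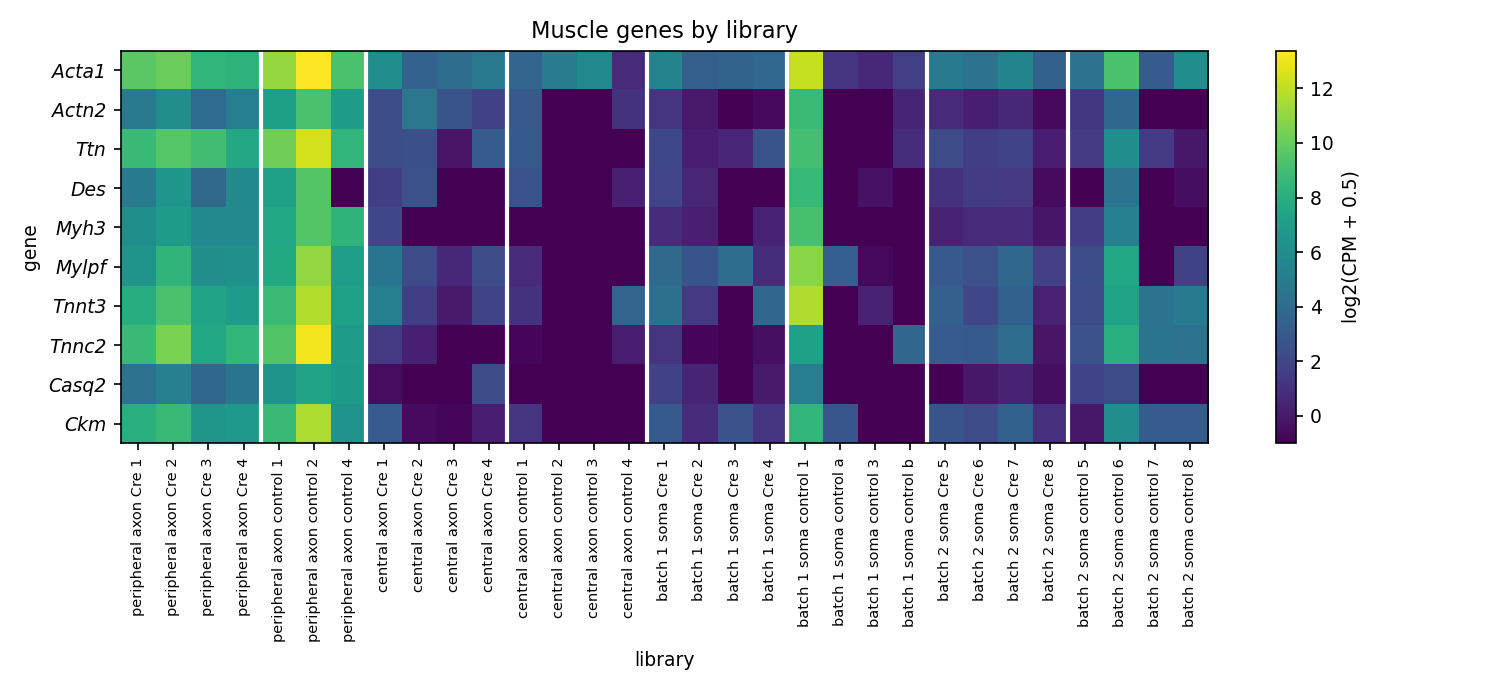
Level of each of the 10 muscle genes (rows) in each of the 31 libraries (columns, white lines between groups), as log2(CPM + 0.5). The 7 peripheral axon libraries, batch 1 soma control 1 and batch 2 soma control 6 are bright in nearly every row; Des in peripheral axon control 4 is dark (0 counts), and in central axon controls 2 and 3 only Acta1 is above 0.

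The 2 count tables differ in how they treat genes that overlap on opposite strands, which touches Tnnc2 and Ckm. Of 460 genes whose whole exon length lies under exons on the opposite strand only, none had a count in the batch 1 table, while 308 had counts in the batch 2 table. Of 712 genes covered wholly on their own strand, none had a count in either table. Exons of Ube2c, a gene of the cell cycle, lie opposite 74% of the exon length of Tnnc2, and exons of A930016O22Rik opposite 15.5% of that of Ckm. In batch 2, Ube2c had 57998 counts beside 57003 of Tnnc2 in peripheral axon control 2, and 21086 beside 21187 in peripheral axon Cre 2. In batch 1 soma control 1, Ube2c had 30 counts beside 1218 of Tnnc2. Likewise A930016O22Rik had 11338 counts beside 20240 of Ckm in peripheral axon control 2 and 0 beside 2839 in batch 1 soma control 1. Levels of Tnnc2, and in part of Ckm, are therefore not comparable between batches, and reads of these genes and of their partners cannot be told apart; all fold changes below are within 1 table. Without both genes, the summed level of the other 8 was 892 to 3116 CPM in the peripheral axon Cre libraries, 1805 to 23804 CPM in their controls, 11510 CPM in batch 1 soma control 1 and 1090.04 CPM in batch 2 soma control 6, so the same 9 libraries stayed highest.

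The make-up of the muscle counts was alike only in part among the 9 high libraries. Tnnc2 took from 5.82% to 28.5% of the counts on the 10 genes in the sciatic libraries. Peripheral axon Cre 3 held more Ttn (33.9%) than Acta1 (24.1%), where Ttn took 15.1% to 20.9% in the other sciatic libraries. Acta1 took 21.95% to 38.2% of the counts on the 10 genes in the sciatic libraries, and Acta1 and Tnnc2 were the top pair per kb of exon in all 7 of them. Per kb of exon the medians over the 7 libraries were 547 CPM per kb for Acta1, 522 for Tnnc2, 159 for Tnnt3, 124 for Mylpf and 91.5 for Ckm, against 19.3 for Myh3, 18.0 for Actn2, 15.2 for Des and 13.9 for Casq2. Ttn came last at 4.33 CPM per kb.

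Peripheral axon control 4 stood apart from the other nerve libraries in Myh3 and Casq2. Myh3 took 16.5% of its muscle counts, against 2.09% to 3.91% in the other 6, and Casq2 5.58%, against 0.465% to 1.74%. Per count of Acta1 it held 0.537 counts of Myh3, where the median of the 7 libraries was 0.108. The same library had 0 counts of Des and of Scn10a, the lowest summed level of 6 general neuron markers among the sciatic libraries (241 CPM, against 1870 to 7527 CPM in the 4 Cre libraries) and 14386 CPM of 8 fibroblast and tendon markers. Whether any of these values bears on the muscle counts was not tested.

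Batch 1 soma control 1 and batch 2 soma control 6 differed from the nerve libraries in the light chain and in titin. Mylpf took 15.2% and 13.1% of their muscle counts, against 3.54% to 6.81% in the sciatic libraries, and Ttn 4.58% and 4.56%, against 15.1% to 33.9%. In batch 1 soma control 1 Tnnt3 took 26.6%, against 7.46% to 12.2% in the nerve. That library belongs to the other count table, whereas soma control 6 was counted in the same table as the nerve libraries. This make-up was not particular to these 2 libraries. On far fewer counts, Mylpf took 10.9%, 10.8%, 13.2% and 16.5% in batch 2 soma Cre 5 to 8. Ttn took 6.33%, 5.30%, 3.26% and 3.30% there. Batch 1 soma Cre 1 had Mylpf at 14.6%, Ttn at 3.75% and Tnnt3 at 19.2%. Not all soma libraries shared it: batch 1 soma Cre 4 had Mylpf at 3.42% and Ttn at 16.1%.

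**Figure D3:**
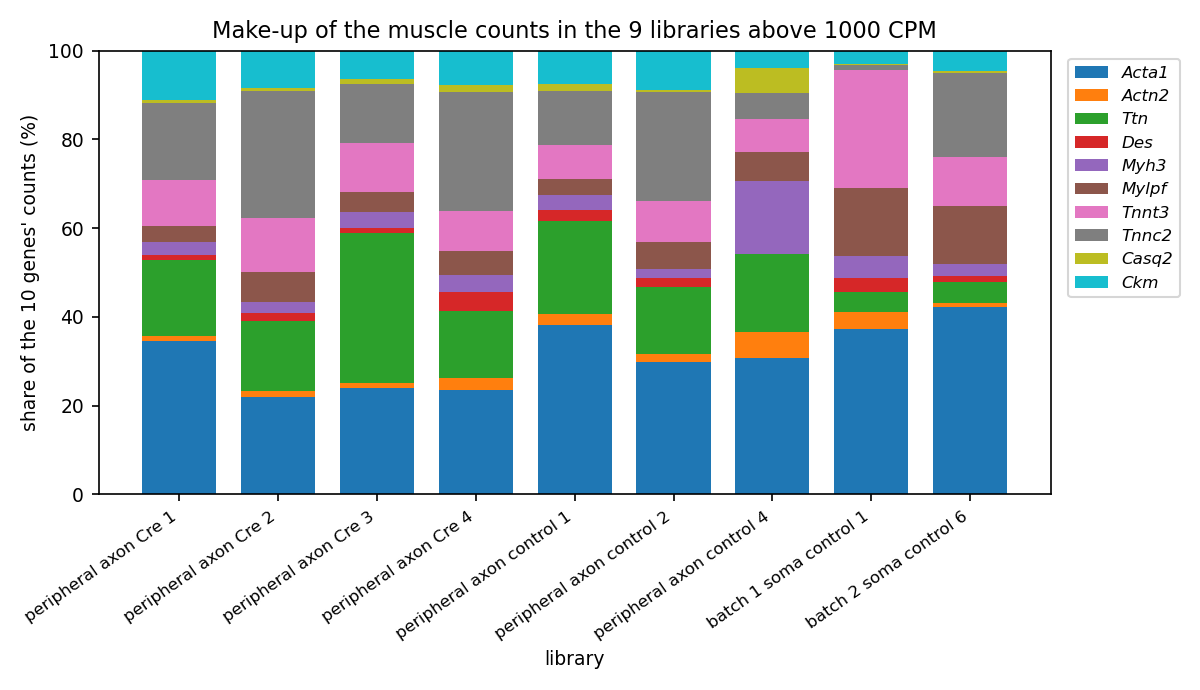
Share of the counts on the 10 muscle genes that each gene takes (percent, stacked bars) in the 9 libraries above 1000 CPM. Acta1 takes between 21.95% and 42.3%; Myh3 is enlarged in peripheral axon control 4 (16.5%), and Mylpf in batch 1 soma control 1 (15.2%) and batch 2 soma control 6 (13.1%).

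Across all 31 libraries the 45 pairs among the 10 genes had Pearson's r between 0.741 and 0.946 on log2(CPM + 0.5), with a median of 0.870. Within the 7 sciatic libraries r ran from 0.127 to 0.982 with a median of 0.824. These values describe how the set was chosen as much as how the genes vary, since the points share libraries and depth and fall into the high and low groups above.

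Among the myosin heavy chains the developmental forms were the most abundant. Heavy chains are encoded by separate genes for the embryonic (Myh3), neonatal (Myh8), slow (Myh7) and adult fast (Myh1, Myh2, Myh4) forms; the 5 genes other than Myh3 were singled out after their values were seen. Per kb of exon, the median over the 7 sciatic libraries was 53.7 CPM per kb for Myh8 and 19.3 for Myh3, against 2.37 for Myh7, 1.51 for Myh1, 0.477 for Myh2 and 0.0288 for Myh4. The embryonic and neonatal forms together made up 95.0%, 93.6%, 86.8% and 90.6% of the 6 heavy chains per kb in peripheral axon Cre 1 to 4. The share was 92.3%, 97.6% and 96.3% in controls 1, 2 and 4, and 96.0% and 94.8% in batch 1 soma control 1 and batch 2 soma control 6. The 2 developmental genes were above the summed adult fast genes in every one of the 9 libraries. Heavy chain genes resemble one another, and the share of 50-base windows found in another gene ran from 4.76% for Myh3 to 25.4% for Myh1, so the lower values are uncertain where reads that fit several genes were dropped.

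In the 22 low libraries the 10 genes were mostly at a few CPM or not detected. Acta1 had at least 10 counts in all 22, Mylpf in 16, Tnnt3 in 15, Ckm and Ttn in 13, Actn2 in 11, Tnnc2 in 9, Des in 8, Myh3 in 6 and Casq2 in 4. Central axon controls 2 and 3 were the plainest case of 1 gene without the rest: they held 251 and 462 counts of Acta1, or 32.1 and 57.1 CPM, and 0 counts of each of the other 9. There 0 counts allow up to 0.384 and 0.370 CPM. Other low libraries also held single members without the rest, such as Tnnc2 at 13.2 CPM in batch 1 soma control b, which had 0 counts of 6 members. In these libraries 1 member at over 10 CPM was found without most of the others.

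The first comparison asks whether the Cre-dependent pulldown from sciatic nerve holds more or less muscle RNA than the same procedure without tagged ribosomes. All 10 genes were lower in the Cre libraries, with log2 fold changes from -3.00 (Actn2) to -2.24 (Tnnt3) and a median of -2.52, or 5.73-fold lower. The median over all 13970 genes tested was 0.07. The value for Acta1 was -2.84 with an SE of 0.92, for Myh3 -2.51 (SE 0.55), for Casq2 -2.28 (SE 0.52) and for Tnnc2 -2.50 (SE 1.20). The 2 groups did not overlap for 3 of the 10 genes, Myh3, Casq2 and Actn2, and did not overlap for 6.36% of all genes tested.

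Peripheral axon control 2 set most of this difference. Without it the median of the 10 genes was -0.53, with Tnnc2 at 0.70 and Tnnt3 at 0.13 on the other side of 0. Actn2 and Myh3 were then both at -1.64 and Casq2 at -1.84. Without peripheral axon Cre 2, the highest of the Cre libraries, the median was -3.16. Control 2 also held the most fibroblast and tendon markers, 19641 CPM against 5245 and 14386 CPM in controls 1 and 4 and 3818 to 6692 CPM in the Cre libraries; the part of these cells in the result was not tested.

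The other muscle genes lay mostly on the same side without passing the test. Of 73 tested, 68 had a lower level in the Cre libraries, with a median log2 fold change of -2.36. None was called by edgeR's quasi-likelihood test (adjusted p under 0.05), nor by DESeq2, and 14 had an unadjusted p under 0.05. Control 2 stood far above the rest for these genes as well. The 82 listed genes summed to 25107 CPM there and to 4471 and 1556 CPM in controls 1 and 4. The Cre libraries held 1240 to 3371 CPM, so the fold changes and list medians lean on control 2. In this comparison edgeR called 0 of 13970 genes (0%), with 514 at an unadjusted p under 0.05, while DESeq2 called 92 of 23740. By list the medians were -2.36 for fast fibre genes (9 tested), -2.60 for sarcomere and Z-disc genes (20 tested) and -1.26 for slow fibre genes (8 tested, 2 of them higher in Cre). Among markers of other cells, the 8 fibroblast and tendon markers and the 3 immune markers tested were all lower in Cre, with medians of -1.38 and -1.79. Schwann cell markers had a median of -0.03 (9 tested) and endothelial markers -0.32 (6 tested), and the 5 red blood cell and 6 neuron markers were all higher in Cre, with medians of 0.72 and 0.93. None of these markers was called, and their part in the muscle values was not tested.

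**Figure D4:**
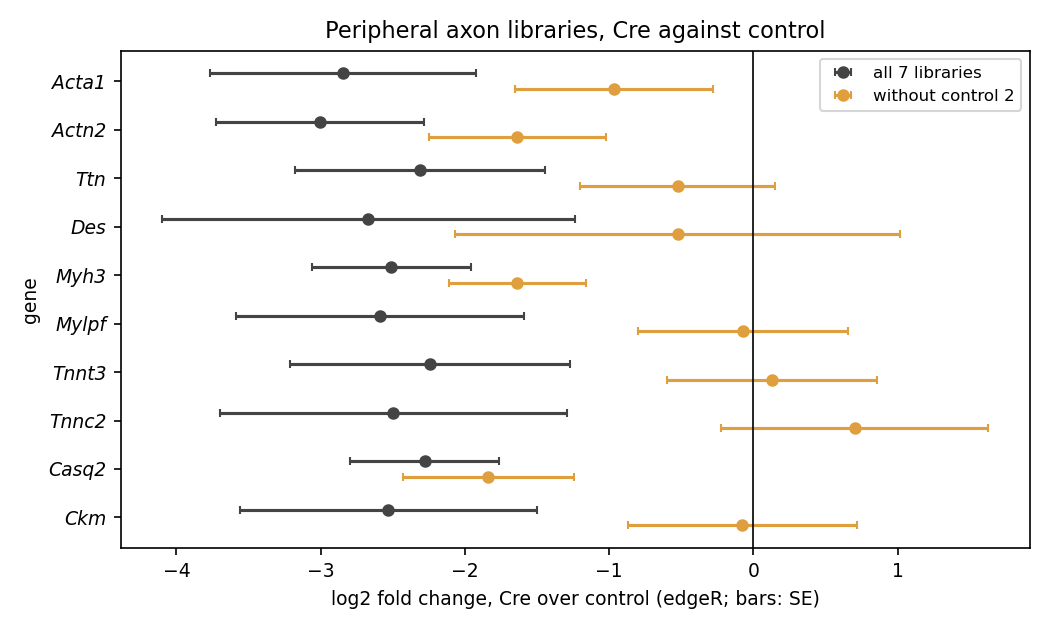
Log2 fold change of each muscle gene in peripheral axon Cre over control libraries, from edgeR, with its SE as a bar; grey points use all 7 libraries and orange points leave out control 2. With all libraries the values run from -3.00 to -2.24, and without control 2 their median is -0.53.

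In the batch 1 soma the same comparison rested on control 1 alone. Only 5 of the 10 genes, Acta1, Ckm, Tnnt3, Mylpf and Ttn, passed the filter on low counts, and their log2 fold changes ran from -6.60 to -4.38 with a median of -5.67. Without control 1 all 5 were on the other side of 0, with a median of 1.06. Actn2 was at 447 CPM in control 1 and at most 1.76 CPM in the 7 other libraries of this comparison, yet was not tested. Markers of several other cells lay on the same side. Medians were -3.46 for fibroblast and tendon (6 tested), -3.23 for Schwann cell (8), -2.38 for red blood cell (4) and -2.25 for endothelial markers (2). None of these was higher in Cre, and the 1 adipocyte marker tested was at -3.82. Neuron (6, 2 higher), nociceptor (9, 4 higher), smooth muscle and pericyte (2, 1 higher) and cardiac markers (2, 1 higher) had medians of -1.46, -0.47, -1.70 and 1.74. The median over all genes tested was -0.45. Summed neuron levels were nevertheless higher in Cre, at 9967 to 15590.5 CPM against 5067 to 9017 CPM in the controls. Values below 0 were thus not particular to non-neuronal cells. The part of TMM scaling in them was not tested. Control 1 had the highest summed adipocyte (360 CPM), endothelial (199 CPM) and red blood cell (925 CPM) levels of the 4 controls, while fibroblast and tendon markers were highest in control a (6314 CPM, against 3892 CPM in control 1) and Schwann cell markers in control b (8889 CPM, against 7090.04 CPM). The part of these cells in the muscle values was not tested. Of the 14 other muscle genes tested, 2 were called, both higher in Cre, beside 4.42% of all 11667 genes (4.37% called higher and 0.0514% lower). They were Stac3, part of the calcium channel complex of muscle, at 2.38, 2.82, 1.29 and 1.19 CPM in Cre 1 to 4 and 0 counts in all 4 controls (adjusted p = 0.0099), and Chrna1, a subunit of the muscle acetylcholine receptor, at 1.86, 1.75, 4.31 and 6.35 CPM against at most 0.125 CPM (adjusted p = 0.0162), both by edgeR. The count was 0 without control 1, a or b and 4 without control 3, whose TMM scaling factor of 0.0547 set it apart from the 7 other libraries (1.30 to 1.78).

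Batch 2 soma gave the same picture with control 6. The 9 genes tested, all but Casq2, were lower in Cre, with a median log2 fold change of -2.40 and a range from -3.21 (Myh3) to -1.46 (Des). Without control 6 the median was 0.11. Markers of several other cells were lower in Cre as well. The medians were -2.94 for fibroblast and tendon (7 tested), -2.19 for endothelial (6) and -3.14 for red blood cell markers (5). They were -2.98 for adipocyte (2) and -1.98 for Schwann cell markers (9, of which 1 was higher). Immune (2), smooth muscle and pericyte (4, 1 higher) and astrocyte markers (4, 2 higher) had medians of -0.51, -0.56 and -0.57. Cardiac (3, 2 higher), keratinocyte (2, 1 higher), neuron (6, 4 higher) and nociceptor markers (9, 6 higher) had medians of 1.48, 0.72, 0.53 and 0.65. Control 6 had the highest summed red blood cell (1802 CPM), endothelial (88.1 CPM) and adipocyte (45.9 CPM) levels of the 4 controls, while fibroblast and tendon (3700.2 CPM) and Schwann cell markers (2282 CPM) were highest in control 7, where the 10 muscle genes summed to 63.9 CPM. The part of these cells was not tested. None of 37 other muscle genes was called by edgeR (0 of all 15280 genes, 0%), 2 had an unadjusted p under 0.05, and DESeq2 called 3. The share of all genes that DESeq2 called is not given here, so nothing is read from its count.

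Central axon libraries were low in both genotypes. The 5 genes tested, Actn2, Acta1, Tnnt3, Mylpf and Ttn, had a median log2 fold change of 1.75 in Cre over control, from 0.37 (Acta1, SE 1.14) to 4.89 (Mylpf, SE 2.17), and their groups overlapped in all 5 (8.14% of all genes did not overlap). Myh3 and Casq2 had 0 counts in all 4 controls and reached 3.68 and 4.40 CPM in 1 Cre library each. Of the 19 other muscle genes tested none was called by edgeR (2 of all 14189 genes, 0.0141%), 2 had an unadjusted p under 0.05, and DESeq2 called 2. The DESeq2 count likewise stands without the share over all genes and is not read further.

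The next comparisons set axons against the somas of the same batch and genotype; they use the same libraries as the ones above. In the sciatic nerve all 10 genes were higher than in the batch 2 somas among Cre libraries. The log2 fold changes ran from 4.03 (Mylpf, SE 0.68) to 7.24 (Ttn, SE 0.69) with a median of 5.37, or 41.5-fold, with medians of 4.68 to 5.71 when any single library was dropped. Acta1, for example, stood at 30.3, 21.98, 45.2 and 10.5 CPM in soma Cre 5 to 8, all below the lowest nerve value of 319.5 CPM. None of the 10 genes overlapped between the groups, beside 38.7% of all 15467 genes. This contrast is part of how the set was chosen, so nothing is read from that count.

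The same contrast was tested on genes outside the set. Of 53 other muscle genes tested, 38 were called by edgeR, all higher in the nerve (71.7%, beside 18.7% of all genes). With any single library dropped the count was 35 to 47. The low-count filter kept 53 of the 82 listed genes. A gene near 0 in the somas could pass it only through the nerve libraries, and could then only rise. The lists were also drawn up with earlier results known, so the direction and the share called are a description. The median log2 fold change was 4.11, against -0.03 over all genes. The fold change was above 0 for 48 of the 53 genes. All 7 fast fibre genes tested were called higher, as were 5 of 7 slow fibre genes and 2 of 4 developmental genes. The same held for 12 of 14 sarcomere and Z-disc genes and 6 of 14 genes of excitation and calcium release. Of the metabolic genes 4 of 5 were called higher, and so were both regulators tested.

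The smallest adjusted p-values were those of Neb, Trdn, Myh8, Actn3 and Cacng1. Neb, encoding the thin filament ruler nebulin, stood at 94.1, 89.4, 83.7 and 73.7 CPM in the nerve and at 0.250 to 1.17 CPM in the somas (log2 fold change 6.75, SE 0.50, edgeR adjusted p = 1.98e-05). Trdn, the junctional protein triadin, stood at 48.6 to 101 CPM against 0 to 0.306 CPM (8.38, SE 0.69, edgeR adjusted p = 2.22e-05). Myh8, the neonatal heavy chain, stood at 255 to 804 CPM against 0.801 to 6.26 CPM (6.65, SE 0.69, edgeR adjusted p = 6.51e-05). Actn3, the alpha-actinin of fast fibres, rose by 3.80 (SE 0.48, edgeR adjusted p = 0.000188) and Cacng1, a calcium channel subunit of muscle, by 5.58 (SE 0.73, edgeR adjusted p = 0.000234). In each of the 5 genes the 4 nerve libraries lay above the 4 soma libraries.

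Genes of several other non-neuronal cells were also higher in the nerve. All 9 Schwann cell markers were called higher, with a median log2 fold change of 5.74. So were 6 of 6 endothelial, 5 of 5 smooth muscle and pericyte, 2 of 2 adipocyte and 4 of 5 red blood cell markers. Of 7 fibroblast and tendon markers tested, 6 were called higher and 1 lower. Other lists rose less or not at all. Of 3 immune and 4 astrocyte markers tested, 1 of each list was called higher. Cardiac markers had a median of -0.45 (4 tested, 1 called higher) and keratinocyte markers -1.24 (2 tested, 0 called). All 9 nociceptor and all 6 neuron markers were lower in the nerve, with 7 and 4 of them called and medians of -1.73 and -1.57. The summed Schwann cell level ran from 10508 to 28620 CPM in the nerve Cre libraries and from 440.2 to 647 CPM in the soma Cre libraries; its part in the muscle result was not tested.

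**Figure D5:**
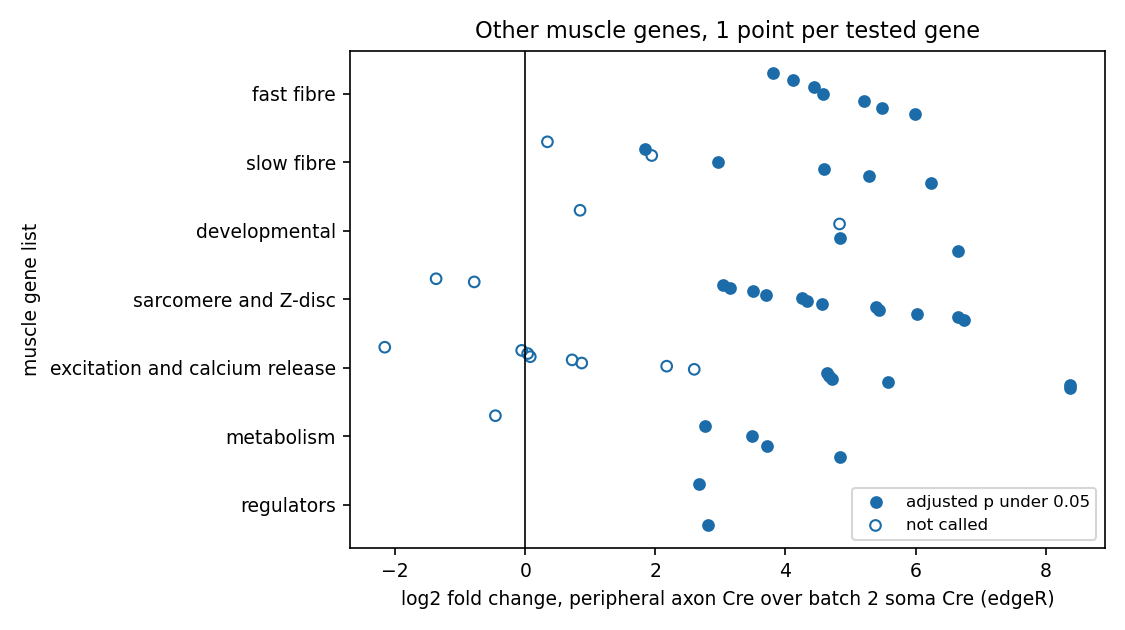
Log2 fold change of other muscle genes in peripheral axon Cre over batch 2 soma Cre libraries, from edgeR, with 1 point per tested gene, grouped by list; filled points have an adjusted p under 0.05. Of 53 genes, 38 are filled and all of these lie to the right of 0.

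Among control libraries the nerve was again above the soma. All 10 genes were higher, with log2 fold changes from 4.18 (Mylpf) to 7.15 (Ttn) and a median of 5.66, with medians that ran from 3.57 (without peripheral axon control 2) to 7.84 (without soma control 6). The groups did not overlap for 4 of the 10, Myh3, Casq2, Actn2 and Ttn, beside 16.2% of all genes. Of 54 other muscle genes, 53 were higher in the nerve and 2 were called by edgeR, beside 0.0802% of all 13715 genes (0.0656% called higher and 0.0146% lower). The count was 0 without peripheral axon control 2 and 0 without any 1 of soma controls 5, 6, 7 and 8, and it was 4 without peripheral axon control 4. They were Cacng1 at 45.3, 196 and 64.8 CPM against at most 0.277 CPM (log2 fold change 9.15, SE 1.23) and Atp2a1, the calcium pump of fast fibres, at 187, 946 and 161 CPM against 3.10 to 10.6 CPM (6.23, SE 0.85), both with an edgeR adjusted p of 0.0414. In all, 30 of the 54 had an unadjusted p under 0.05, and DESeq2, which tested 67, called 17. Its share over all genes is not given here, so nothing is read from the 17. The limit set by the low-count filter holds for the direction of these 54 genes too.

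Central axons did not show this. Among Cre libraries the 7 genes tested had a median log2 fold change of 0.19 against the batch 1 somas, from -1.25 (Ckm) to 3.58 (Actn2, SE 1.21), which lay between -0.77 and 0.90 when single libraries were dropped. The groups did not overlap for 1 gene, Actn2, at 3.06 to 25.9 CPM in central axons and 0 to 1.76 CPM in somas, beside 22.1% of all genes. Of 30 other muscle genes, 2 rose by edgeR's test, beside 13.7% of all 14480 genes (8.63% called higher and 5.11% lower). They were Ryr1, the calcium release channel, at 8.30, 22.4, 18.4 and 42.2 CPM against 0 to 1.27 CPM (log2 fold change 4.55, SE 0.90, adjusted p = 0.00675), and Phkg1, a subunit of phosphorylase kinase, at 6.42, 6.10, 7.42 and 34.5 CPM against at most 3 counts per soma library (adjusted p = 0.00457). Both genes are also expressed outside muscle. Ryr1 and Phkg1 stood at up to 42.1 and 9.60 CPM in the central axon controls, in a library with 0 counts of 9 of the 10 muscle genes.

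Among control libraries only Acta1 could be tested between central axons and batch 1 somas, and its log2 fold change of -5.71 became 2.87 without soma control 1. Of 4 other muscle genes none was called by edgeR (0 of all 9202 genes, 0%) and none had an unadjusted p under 0.05, while DESeq2, which tested 25, called 5. For this DESeq2 count, too, the share over all genes is not given, and nothing is read from it.

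Ranked by likeness to the mean of the 10 genes over the 31 libraries (Pearson's r on log2(CPM + 0.5), 18249 genes with at least 10 counts in at least 4 libraries), the nearest other genes were Myh8 (r = 0.982), Sln (0.963), Tnni2 (0.963), Csrp3 (0.952), Pgam2 (0.940), Actc1 (0.939), Atp1b4 (0.931), Myl1 (0.925), Tnnc1 (0.920) and Cox6a2 (0.919). Of these 10, 9 were in the other muscle lists, as were 24 of the nearest 50. Atp1b4, a muscle relative of the beta subunits of the sodium pump, was in no list. The libraries share depth and the split between high and low, so these values describe a pattern only.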

How the data were processed

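The files hold counts per gene in 31 libraries, deposited by the authors as 1 raw count table per batch. Per the submitters' processing notes, reads were aligned with STAR 2.7.2b to mm10; the counting program and its strand setting are not given in the sources used here. All 55536 gene identifiers matched GENCODE M21 (GRCm38). Values are CPM, the deposited counts divided by the library's total and scaled to 1e6, with Wilson 95% intervals and a floor of 3 counts, which cover counting error only. The labels call the replicates biological without saying whether each was 1 mouse or a pool, so p-values measure the spread between libraries.

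Comparisons used edgeR 4.0.16 (quasi-likelihood, filterByExpr with a minimum count of 10 and a total of 15, TMM scaling) in R 4.3.3 with limma 3.58.1, with Benjamini-Hochberg adjustment over all genes tested and a threshold of 0.05; the SE is the log2 fold change over the square root of F. The fit was tested on simulated data with the same dispersion for every gene and no library set apart from its group. That test therefore does not cover fits in which single libraries stand far from their group. Alternatives were RLE factors, library size alone, no filter, DESeq2 1.42.0, leaving out each library and the replicate number as a block. Likeness was Pearson's r on log2(CPM + 0.5). Tables and plots used Python 3.11.15, pandas 2.3.3, scipy 1.17.1 and matplotlib 3.10.9.

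The named genes are the 10 members, up to 5 other muscle genes per comparison with the smallest adjusted p among those called, and the 10 genes nearest in likeness. The members, gene lists and tests were chosen with earlier results of these data known. The members were picked for their high levels in these libraries, so their levels and contrasts are descriptions without a test.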

Additional observations from a re-analysis of the deposited data

Results flagged for a closer look

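In groups of 4 libraries, the level of each of the 10 genes and of their sum was compared for a single library far from the other 3. Of 77 such sets, 36 had one. Chance gives about 1 in 20 for independent, normally distributed values, which these are not: the sets share libraries, 11 and 10 of the 36 come from 1 library each, and any count beside 3 values of 0 meets the criterion. The number of sets is therefore not read against chance.

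Batch 1 soma control 1 stood above the other controls for all 10 genes, with Myh3 at 587 CPM, Casq2 at 34.7 CPM, Actn2 at 447 CPM, Acta1 at 4482 CPM, Ckm at 348 CPM and Tnnt3 at 3191 CPM. Mylpf was at 1828 CPM there, Ttn at 549.7 CPM, Des at 389.7 CPM, Tnnc2 at 149 CPM and the sum at 12007 CPM. Batch 2 soma control 6 stood above its group for 9 genes: Myh3 at 37.2 CPM, Actn2 at 13.8 CPM, Acta1 at 604 CPM, Ckm at 66.4 CPM, Tnnt3 at 156 CPM and Mylpf at 187 CPM. Ttn was at 65.1 CPM in it, Des at 21.5 CPM, Tnnc2 at 273 CPM and the sum at 1429 CPM. The genes were thus high together in these 2 libraries, except that Casq2 did not stand apart in the latter.

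Elsewhere single genes stood apart. Central axon Cre 1 was highest for Myh3 (3.68 CPM), Ckm (8.21 CPM), Tnnt3 (36.4 CPM) and Mylpf (23.2 CPM), central axon Cre 2 for Actn2 (25.9 CPM) and central axon Cre 4 for Casq2 (4.40 CPM). Central axon control 1 was highest for Ckm (1.78 CPM), Mylpf (1.13 CPM), Ttn (7.92 CPM) and Des (5.66 CPM), and central axon control 4 for Tnnt3 (12.4 CPM) and Tnnc2 (0.614 CPM). Batch 1 soma Cre 1 was highest for Acta1 (44.3 CPM) and Tnnc2 (1.86 CPM), and peripheral axon Cre 2 for Mylpf (336 CPM).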

How the results depend on the processing

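The count of other muscle genes called was within 1.5 times its value in 27 of 38 alternatives, apart from the fits that left out 1 library. The 38 include fits with the replicate number as a block. These held only libraries whose number occurs in both groups, so some of them left libraries out. Without the low-count filter it was 14 in the batch 1 somas (2 with the filter), 5 for central axon against soma in Cre libraries (2 with it), and 27 and 3 for peripheral and central axon against soma in control libraries (2 and 0 with it). DESeq2 called 2 for central axon Cre against control, 6 and 3 in the batch 1 and batch 2 somas, 5 for Cre central axon against soma, and 17 and 5 for control peripheral and central axon against soma. The cause of these differences was not tested. For Cre peripheral axon against soma the count was 38, with 49 without the filter and 53 by DESeq2. The counts without the filter and by DESeq2 stand here without the share of all genes called. They are therefore not read as a result about muscle genes. Leaving out 1 library gave 0 to 4 genes in the batch 1 somas, 0 to 1 in the batch 2 somas, 35 to 47 and 2 to 4 for Cre peripheral and central axon against soma, and 0 to 4 for control peripheral axon against soma. It gave 0 in each fit of the other 3 comparisons.

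Leaving out 1 library moved the median log2 fold change of the 10 genes between -3.16 and -0.53 for peripheral axon Cre against control and between 1.05 and 4.14 for central axon. It moved it between -6.27 and 1.06 in the batch 1 somas and between -2.84 and 0.11 in the batch 2 somas. Against soma the ranges were 4.68 to 5.71 and -0.77 to 0.90 for Cre peripheral and central axons, and 3.57 to 7.84 and -7.01 to 2.87 for the controls. The 24 other alternatives moved no median by as much as the standard deviation between libraries of the 10 genes' mean log2 level. Where 1 library stands far from its group this standard deviation is large, so it could hide a sizeable shift. Without Tnnc2 and Ckm, an alternative chosen after seeing the data, the medians were -2.55 for peripheral axon Cre against control and -5.75 for the batch 1 somas.

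Same-numbered libraries did not all correlate above 0.1 in any comparison, so the replicate numbers were not taken as pairs. The mean r of same-numbered libraries was highest for Cre central axon against soma. It was 0.116 there (-0.00494 to 0.196), against -0.038 for libraries of other numbers. With the replicate number as a block the batch 1 soma count was 0, with 0 of all genes called (2 and 516 without the block). That fit held only the 2 replicate numbers that both groups share and left out the other libraries, among them controls a and b. The loss of calls therefore cannot be put down to the block. For Cre central axon against soma the count with the block was 3, with 2226 of all genes called (2 and 1990 without the block). Peripheral axons and batch 2 Cre somas share no numbers, so no paired fit was possible there. With 3 or 4 libraries a group, 1 library decides several medians, and 0 counts allow a level of up to 0.153 to 0.833 CPM, depending on the library.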
